A study of Homo sapiens with 48 samples.

Results

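The genes of the proteasome were followed in AMO1 cells in which IRE1 or XBP1 was silenced. They were taken by symbol as 39 of the 58302 genes of the count table. They encode 7 subunits of the alpha ring, 4 non-catalytic and 3 catalytic subunits of the beta ring, the 3 catalytic subunits of the immunoproteasome, 6 ATPases and 3 further subunits of the base of the 19S cap, 8 subunits of its lid, 1 chaperone of cap assembly, and 4 activators. AMO1 is an established human line of multiple myeloma, derived from a plasmacytoma, which is a tumour of antibody-secreting plasma cells. The study used 4 clones, each grown from 1 cell and carrying 3 short hairpin RNAs (shRNAs) whose expression is induced with doxycycline (Dox). In shIRE1 clones 1 and 3 the target was ERN1, which encodes IRE1, and in shXBP1 clones 1 and 18 it was XBP1, the transcription factor whose mRNA IRE1 splices. Each clone was sampled untreated (0 h) and after 24, 48 and 72 h of Dox at 0.2 µg/ml, in 3 flasks per time, which gave 48 libraries of poly(A) RNA. No non-targeting clone was analysed here. The untreated flasks of a clone served as its reference, and none is labelled with a time later than 0 h. What Dox, the presence of any shRNA or time in culture does by itself is therefore contained in the changes.

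The proteasome degrades proteins that carry ubiquitin chains. Its 20S core is a barrel in which PSMB5, PSMB6 and PSMB7 cut peptide bonds, and its 19S cap binds the ubiquitin chain, removes it, and unfolds and threads the protein into the barrel. In cells exposed to interferon, PSMB8, PSMB9 and PSMB10 replace PSMB5, PSMB6 and PSMB7 in newly built cores, and the resulting immunoproteasome makes many of the peptides shown by MHC class I. Plasma cells make large amounts of antibody and degrade what fails to fold, and myeloma is treated with drugs such as bortezomib that block PSMB5.

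Promoter sequences are shown for 3 genes that rose and 3 that fell in both shIRE1 clones at 72 h, because they let the reader compare the letters upstream of catalytic subunits that rose with those of cap subunits that fell. Each line gives the 250 bases before the gene's start in RefSeq on GRCh38.p14, read 5′ to 3′ on the strand of the gene. Capitals mark matches on either strand to 5 motifs, which are CCAAT (bound by NF-Y), TGACNNNGC (the core of the antioxidant response element bound by NFE2L1 and NFE2L2), GAAANNGAA (interferon-stimulated response element), TTCNNNGAA (STAT sites) and CACGTG (E box).
PSMB5, chr14:23035221-23035470, minus strand: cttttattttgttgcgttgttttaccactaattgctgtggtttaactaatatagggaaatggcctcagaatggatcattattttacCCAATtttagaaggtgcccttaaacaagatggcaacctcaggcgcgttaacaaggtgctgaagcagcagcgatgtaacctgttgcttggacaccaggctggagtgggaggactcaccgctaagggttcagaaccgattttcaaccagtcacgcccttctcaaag
PSMB8, chr6:32844680-32844929, minus strand: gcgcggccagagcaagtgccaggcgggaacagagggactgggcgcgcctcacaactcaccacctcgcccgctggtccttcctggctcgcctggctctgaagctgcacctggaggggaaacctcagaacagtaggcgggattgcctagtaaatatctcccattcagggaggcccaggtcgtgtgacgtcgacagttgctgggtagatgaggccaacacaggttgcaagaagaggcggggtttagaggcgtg
PSMB10, chr16:67936851-67937100, minus strand: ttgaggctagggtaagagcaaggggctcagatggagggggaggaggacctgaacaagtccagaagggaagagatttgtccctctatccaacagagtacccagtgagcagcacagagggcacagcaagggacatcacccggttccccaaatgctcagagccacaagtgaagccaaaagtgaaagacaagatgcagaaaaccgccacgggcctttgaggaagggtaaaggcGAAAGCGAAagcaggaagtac
PSMD12, chr17:67366578-67366827, minus strand: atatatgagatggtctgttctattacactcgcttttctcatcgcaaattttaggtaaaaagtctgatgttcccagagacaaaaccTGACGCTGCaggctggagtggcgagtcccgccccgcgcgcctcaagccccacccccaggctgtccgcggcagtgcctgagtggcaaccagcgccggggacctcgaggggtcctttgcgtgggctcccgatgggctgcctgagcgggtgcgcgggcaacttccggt
PSMD8, chr19:38374321-38374570, plus strand: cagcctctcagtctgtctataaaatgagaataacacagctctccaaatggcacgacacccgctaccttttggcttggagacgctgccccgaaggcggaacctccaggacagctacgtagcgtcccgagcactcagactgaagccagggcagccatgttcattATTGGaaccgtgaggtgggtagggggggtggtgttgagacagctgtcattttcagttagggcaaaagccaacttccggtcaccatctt
PSMD3, chr17:39980557-39980806, plus strand: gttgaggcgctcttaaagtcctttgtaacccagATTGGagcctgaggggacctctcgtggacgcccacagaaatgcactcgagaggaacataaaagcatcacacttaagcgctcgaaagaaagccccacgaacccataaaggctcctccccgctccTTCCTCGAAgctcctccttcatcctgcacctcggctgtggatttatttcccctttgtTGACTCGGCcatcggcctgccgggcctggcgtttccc

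The window of PSMB10 held the interferon-stimulated response element close to the gene, that of PSMB5 held a CCAAT box, and that of PSMB8 held none of the 5 motifs. The windows of PSMD12 and PSMD3 each held TGACNNNGC, and those of PSMD3 and PSMD8 held CCAAT on the opposite strand, read here as ATTGG. RefSeq windows were at hand for 34 of the 39 members. CCAAT was found in 15 of these 34 (44.1%) against 32.0% of all 35116 promoters of this length. TGACNNNGC was found in 8 (23.5%) against 10.9%, GAAANNGAA in 4 (11.8%) against 6.88%, TTCNNNGAA in 4 (11.8%) against 6.57%, and CACGTG in 2 (5.9%) against 6.34%. These matches describe letters, and no binding was measured.

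Libraries held 19177855 to 40767202 counts, so that 1 count was at most 0.0521 CPM (counts scaled to a common library total). Both targets fell where they were silenced. At 72 h, ERN1 fell by 32.9% in shIRE1 clone 1 and fell by 71.7% in clone 3, and XBP1 fell by 80.0% in shXBP1 clone 1 and fell by 77.7% in clone 18. At the same time XBP1 fell by 23.1% and 44.7% in shIRE1 clones 1 and 3, while ERN1 was higher by 64.5% in shXBP1 clone 1 and fell by 18.0% in clone 18, all called by edgeR. The shIRE1 clones started at different levels of ERN1 and ended closer together. Mean ERN1 was 152.45 CPM at 0 h, 126.88 CPM at 24 h and 102.43 CPM at 72 h in clone 1. In clone 3 it was 438.02, 145.12 and 125.02 CPM. The library labelled shXBP1 clone 18, 72 h, replicate 3 stood apart: at 82 genes that separate the shXBP1 clones, 77 lay nearer to clone 1, and for several results the value in its absence is also given. Replicate 1 of shIRE1 clone 3 at 24 h, as labelled, correlated slightly better with shIRE1 clone 1 than with its own group, but only 3 of 7 such genes lay nearer to that clone. All 9 plasma cell markers were detected in each library, while B cell markers summed to at most 2.32 CPM (PAX5 was at 0 in 43 libraries and CD22 in 46). Of the 9 markers of other cell types, CD3E reached 4.59 to 17.3 CPM while CD3D was at 0 in 42 libraries, and the others stayed at or below 3.20 CPM. Some of these moved with IRE1 silencing. From 0 to 72 h the mean level of CD3E went from 5.53 to 15.1 CPM in shIRE1 clone 1 and from 8.03 to 14.3 CPM in clone 3, that of PECAM1 from 0.355 to 1.67 and from 0.306 to 2.18 CPM, and that of the B cell marker MS4A1 from 0.231 to 1.97 and from 0.131 to 1.49 CPM, each called by edgeR. In shXBP1 clone 1 MS4A1 was also called, from 0.132 to 0.402 CPM. Their part in the results that follow was not tested. The scaling factors of the libraries lay between 0.924 and 1.09.

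Before Dox, the members were expressed over a wide range. Per kilobase of transcript, PSMB4, a non-catalytic beta subunit, stood highest at 525 CPM per kb, followed by the alpha subunit PSMA7 at 263 and the catalytic subunit PSMB6 at 239.5. Catalytic PSMB7 and PSMB5 stood at 161 and 93.4 CPM per kb. The immunoproteasome subunits were not silent in these untreated cells, at 89.3 CPM per kb for PSMB8, 39.7 for PSMB9 and 31.2 for PSMB10. The lowest values were those of PSMC6 (6.29), PSMA6 (1.59) and PSMC1 (0.00564), all needed for every 26S proteasome. PSMC1 had 0 to 3 counts in any library and could not be tested, which left 38 members. Of its exonic bases, 83.2% lie opposite an exon of another gene, and 86.1% of the 50-base words of PSMA6 also occur in other genes. The 6 members for which such sharing exceeds 40% (PSMA1, PSMA2, PSMA6, PSMB10, PSMC1 and PSMD7) had a median of 25.5 CPM per kb, against 98.5 for the 28 members with under 10%. For other RNA libraries of the study, only reads assigned to the exons of a single gene were counted, and whether this rule was used for the libraries described here is not given in the sources used here, so the values of these 6 are uncertain, and whether sharing lowered them was not tested.

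The first question was what happens to these genes when IRE1 is silenced. Most subunit mRNAs fell modestly in both shIRE1 clones, while PSMB5 and the immunoproteasome subunits PSMB8 and PSMB10 rose. In shIRE1 clone 1, 26 of the 38 tested members were lower at 24 h (29% of all tested genes were), 30 at 48 h (31.5%) and 28 at 72 h (31.1%). Members that were higher numbered 4 (32.4% of all genes), 4 (33.9%) and 3 (32.5%). In shIRE1 clone 3, 11 members were called lower at 24 h (23.3%), 23 at 48 h (31.6%) and 22 at 72 h (30.5%). Those higher numbered 4 (22.8%), 6 (31.6%) and 5 (29.7%). Whether the timing of the fall differed between the clones was not tested. ERN1 itself had fallen further in clone 3 than in clone 1 at 24 h. A relation of the members' fall to the extent of silencing was not tested. The median log2 change of the members at 72 h was -0.35 in clone 1 and -0.22 in clone 3, while that of all genes was 0.02 in each. Without overlap between 0 and 72 h, 29 members were lower and 6 higher in clone 1 (32.9% and 34.8% of all genes), and 21 and 5 in clone 3 (30.9% and 31.5%). At 24 h in clone 3 the count of calls depended on single libraries, being 8 without 24 h replicate 2, 9 without 24 h replicate 3, and 21 (14 lower and 7 higher) without 24 h replicate 1, the library that correlated better with clone 1. Bulk RNA cannot tell fewer cells of a kind from less RNA per cell, and summed plasma cell markers fell over the same time, from 14239 to 15942 CPM at 0 h to 9103 to 9644 at 72 h in clone 1, and from 17346 to 19047 to 7495 to 9300 CPM in clone 3. Of the 9 markers, 7 were lower at 72 h in clone 1, where SLAMF7 was higher (log2 0.62) and CD38 stood at -0.03, and all 9 were lower in clone 3. SDC1 held most of the sum, with means of 9474 CPM at 0 h in clone 1 and 6340 CPM at 72 h. Their part in these falls was not tested.

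**Figure D1:**
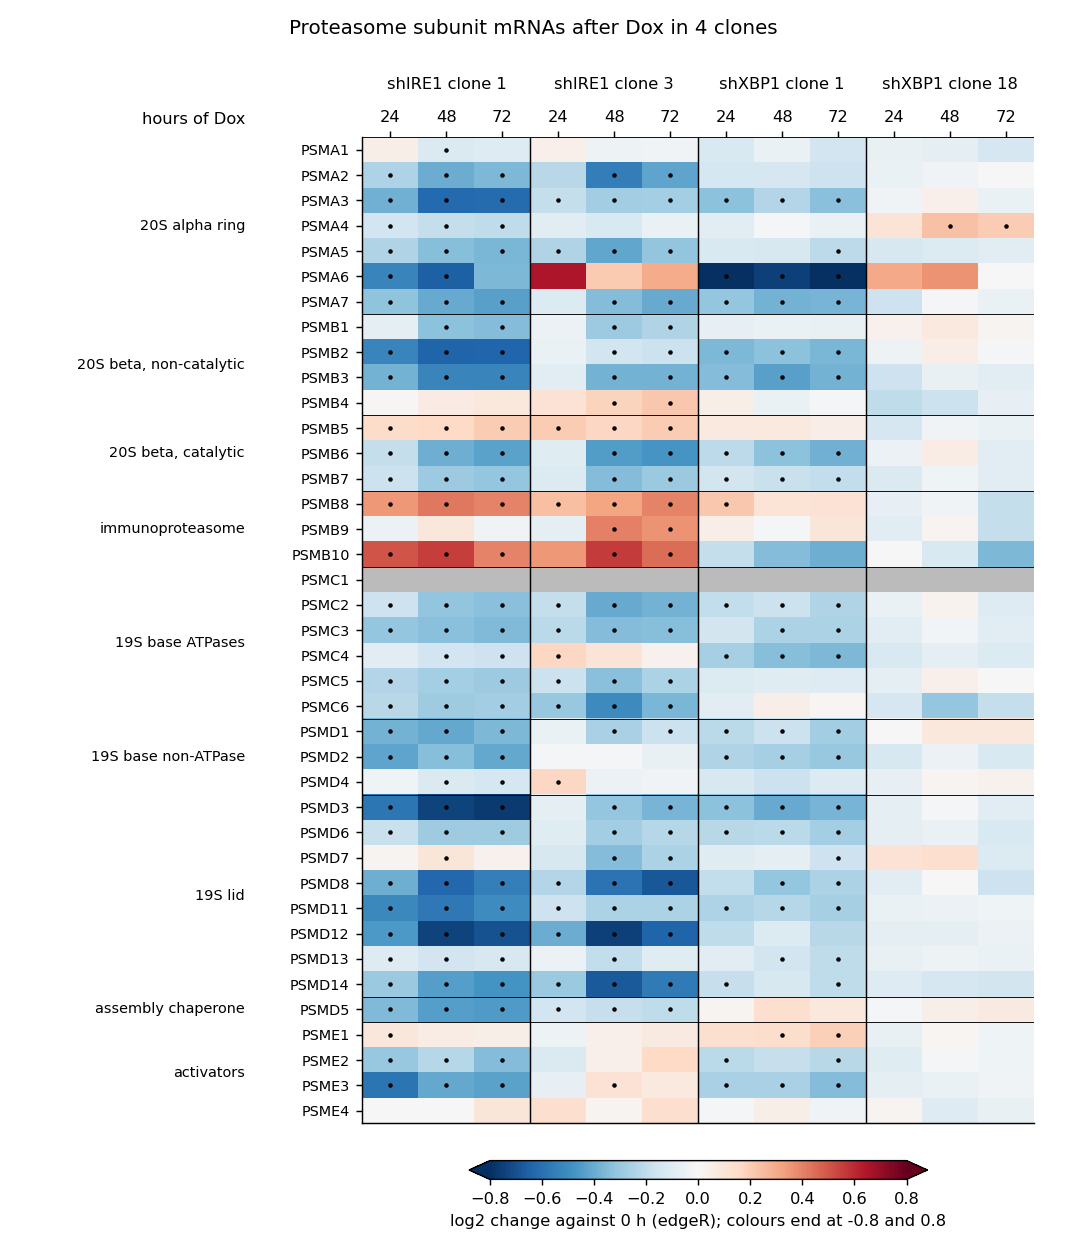
Each row is a member, grouped by its role, and each column a clone and a time of Dox (hours); colour gives the log2 change against 0 h of that clone (edgeR), ending at -0.8 and 0.8, beyond which PSMA6 in shXBP1 clone 1 lies, dots mark calls and grey marks the untested PSMC1. The shIRE1 columns are mostly negative for core and cap subunits and positive for PSMB5, PSMB8 and PSMB10, and the shXBP1 clone 18 columns are pale.

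In both shIRE1 clones, 11 members were lower at 24 h (15.8% of all genes were), 22 at 48 h (21.9%) and 21 at 72 h (21.4%). These 21 came from each layer of the particle and were PSMA2, PSMA3, PSMA5 and PSMA7 of the alpha ring, PSMB1, PSMB2, PSMB3, PSMB6 and PSMB7 of the beta ring, PSMC2, PSMC3, PSMC5, PSMC6 and PSMD1 of the base, PSMD3, PSMD6, PSMD8, PSMD11, PSMD12 and PSMD14 of the lid, and the assembly chaperone PSMD5. Higher in both clones were PSMB5 and PSMB8 at 24 h (14.6%), joined by PSMB10 at 48 h (21.7%) and 72 h (20.5%). PSMA1, PSMA6, PSME1 and PSME4 passed the test in neither clone at 72 h. At 24 h PSMB5 in clone 1 missed the threshold with RLE scaling (edgeR adjusted p = 0.0571). It also lost the call at 24 h in clone 1 without 0 h replicate 3 or 24 h replicate 2 or 3 (log2 0.09 to 0.14), and in clone 3 without replicate 2 or 3 of 0 h or of 24 h (log2 0.14 to 0.19). At 48 h this happened in clone 1 without 0 h replicate 3 or 48 h replicate 2 (log2 0.13), and in clone 3 without replicate 2 or 3 of 0 h or of 48 h (log2 0.10 to 0.17). At 48 h PSMB10 in clone 3 did so without 0 h replicate 1 (log2 0.43, edgeR adjusted p = 0.058). At 48 h PSMD7 was higher in clone 1 and lower in clone 3.

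The lid of the 19S cap, which carries the deubiquitinase, held the member with the largest fall in each shIRE1 clone at 72 h, PSMD3 in clone 1 and PSMD8 in clone 3. Of its 8 subunits, 7 were lower in clone 1 at each time, with medians of -0.34, -0.51 and -0.49, and 4, 8 and 7 were lower in clone 3. Of all genes, 29%, 31.5% and 31.1% were lower in clone 1 at the 3 times, and 23.3%, 31.6% and 30.5% in clone 3. PSMD12, a scaffold subunit of the lid (chr17:67337916-67366605, GRCh38), stood at 272, 256 and 242 CPM in the 0 h libraries of clone 1 and at 155, 162 and 159 CPM at 72 h. In clone 3 it went from 217, 212 and 200.4 to 123, 132 and 153 CPM. The groups did not overlap in either clone. The log2 change was -0.70 (SE 0.05, edgeR adjusted p = 1.26e-10) in clone 1 and -0.64 (SE 0.07, edgeR adjusted p = 1.21e-06) in clone 3. In shXBP1 clone 1 PSMD12 stood at 191, 218 and 217 CPM before and 175, 181 and 188 CPM after 72 h of Dox, without overlap. This missed the threshold (log2 -0.22, edgeR adjusted p = 0.0588) but passed it without 0 h replicate 1 (log2 -0.27, edgeR adjusted p = 0.0319). At 72 h each shIRE1 library lay below each shXBP1 library.

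PSMD8, another lid scaffold (chr19:38374563-38383850), went from 129.9, 136 and 134 to 91.7, 90.8 and 91.9 CPM in shIRE1 clone 1, and from 140.3, 121 and 120.1 to 80.3, 81.2 and 79.1 CPM in clone 3. No 72 h library overlapped a 0 h library in either clone. On the log2 scale the changes were -0.55 (SE 0.05, edgeR adjusted p = 1.11e-08) and -0.68 (SE 0.07, edgeR adjusted p = 6.17e-07). PSMD14, the metalloprotease that cuts the ubiquitin chain off the substrate, went from 167, 174 and 164 to 117, 124 and 123 CPM in clone 1 and from 164, 149 and 155 to 102, 103 and 115 CPM in clone 3. Again the groups did not overlap, with log2 changes of -0.48 (SE 0.04, edgeR adjusted p = 2.32e-08) and -0.56 (SE 0.06, edgeR adjusted p = 5.78e-07). PSMD3, also of the lid (chr17:39980807-39997959), fell in clone 1 from 255, 272 and 267 to 156, 155 and 157 CPM. Clone 3 started lower, at 211, 194 and 204 CPM, and reached 162, 161 and 149.8 CPM, so that both clones ended at a like level. The log2 changes were -0.76 and -0.37 (edgeR adjusted p = 2.74e-10 and 0.000122).

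**Figure D2:**
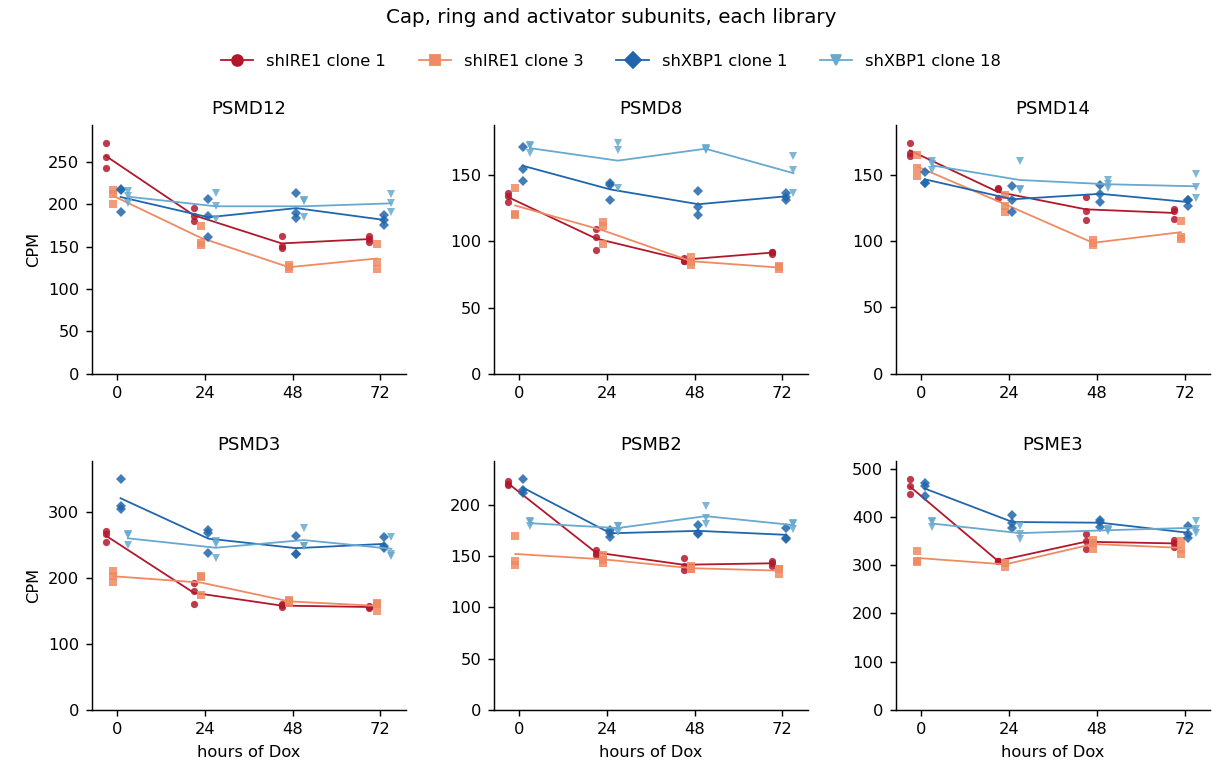
Level of 4 lid subunits, PSMB2 and the activator PSME3 (CPM, linear axes) against hours of Dox in the 4 clones; points are libraries, shifted sideways by clone so that they do not cover each other, and lines join the means of 3 libraries. PSMD12 ends between 123 and 162 CPM in the shIRE1 libraries at 72 h and between 175 and 212 CPM in the shXBP1 libraries, and the shIRE1 clones start apart and end close together for PSMD3, PSMB2 and PSME3.

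The 5 tested ATPases of the base belong to the ring that unfolds the substrate. All 5 were lower in clone 1 at 72 h (median -0.29, and 31.1% of all genes were lower) and 4 in clone 3 (median -0.34, and 30.5%). PSMC2 had the largest mean change of them, at -0.33 and -0.38 (edgeR adjusted p = 1.19e-06 and 1.68e-05). PSMC4 was the one not called in clone 3, where it stood at 221, 201 and 208 CPM before and 226, 217 and 208 CPM after. Of the non-ATPase base subunits PSMD1, PSMD2 and PSMD4, all 3 were lower in clone 1 and only PSMD1 was called in clone 3 (log2 -0.17, edgeR adjusted p = 0.0217), where its groups overlapped. That call was lost without 72 h replicate 1 (log2 -0.15, edgeR adjusted p = 0.0885) or 72 h replicate 2 (log2 -0.13, edgeR adjusted p = 0.104). PSMD5, the chaperone that helps to assemble the base, was lower in both, at -0.45 and -0.20 (edgeR adjusted p = 3.23e-07 and 0.00662).

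In the 20S core, 5 of the 7 alpha subunits were lower in clone 1 at 72 h (median -0.36) and 4 in clone 3 (median -0.27), and 3 of the 4 non-catalytic beta subunits were lower in both (medians -0.44 and -0.21). Of all genes, 31.1% and 30.5% were lower in these clones, and 21.4% in both. PSMA3 had the largest mean change of the alpha ring. It went from 137, 138 and 135 to 85.5, 91.3 and 92.0 CPM in clone 1 and from 114, 104 and 102 to 83.2, 88.4 and 95.4 CPM in clone 3, with no overlap. PSMB3 led the non-catalytic beta subunits at -0.53 and -0.38, and PSMB2 stood at -0.63 and -0.17, a difference of -0.47 (SE 0.06, edgeR adjusted p = 4.16e-07). In clone 3 PSMB2 lost the call without 0 h replicate 1 (log2 -0.11, edgeR adjusted p = 0.0505) or 72 h replicate 1 (log2 -0.16, edgeR adjusted p = 0.0598). The exception was PSMB4, the most abundant member per kilobase, which was higher in clone 3 (log2 0.22, edgeR adjusted p = 0.00411) and did not pass the test in clone 1 (log2 0.08, edgeR adjusted p = 0.0872).

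The catalytic subunits split. PSMB6, the caspase-like site, went from 203, 205 and 203 to 152, 150.5 and 153 CPM in clone 1 and from 195, 176 and 181 to 135, 134 and 131 CPM in clone 3. PSMB7, the trypsin-like site, went from 165, 175 and 164 to 136, 139.5 and 132 CPM and from 162, 149 and 149 to 122, 124 and 131 CPM. Both fell without overlap, PSMB6 by 0.43 and 0.47 and PSMB7 by 0.31 and 0.30 on the log2 scale (edgeR adjusted p = 7.03e-07, 5.49e-07, 9.18e-06 and 9.45e-05). PSMB5, the chymotrypsin-like site and target of bortezomib (chr14:23016543-23035230), rose instead, from 99.9, 101 and 94.2 to 111, 109.7 and 119.5 CPM in clone 1 and from 104, 88.4 and 85.7 to 108, 108 and 107 CPM in clone 3. The rise was small, with log2 changes of 0.20 (SE 0.06, edgeR adjusted p = 0.00337) and 0.20 (SE 0.06, edgeR adjusted p = 0.0113), and the groups did not overlap. In clone 3 it no longer passed without 0 h replicate 2 (log2 0.15, edgeR adjusted p = 0.0807) or 0 h replicate 3 (log2 0.13, edgeR adjusted p = 0.103).

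**Figure D3:**
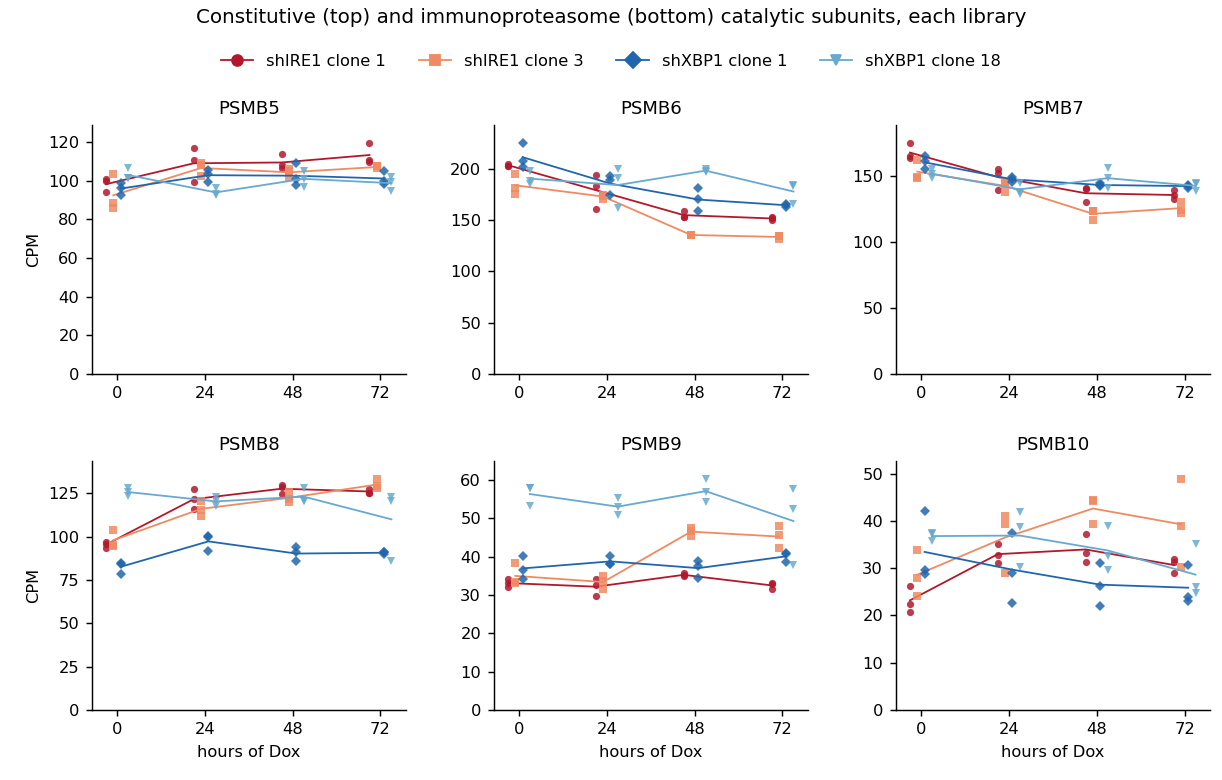
Level (CPM, linear axes) of the 3 constitutive and the 3 immunoproteasome catalytic subunits against hours of Dox in the 4 clones; points are libraries, shifted sideways by clone, and lines join the means of 3 libraries. In the shIRE1 clones PSMB6 and PSMB7 descend while PSMB5 and PSMB8 rise, PSMB8 reaching 125 to 133 CPM at 72 h.

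Of the 3 immunoproteasome subunits, PSMB8 and PSMB10 rose in both shIRE1 clones at 72 h, and PSMB9 rose in clone 3. PSMB8, the inducible counterpart of PSMB5 (chr6:32840717-32844679, near PSMB9 in the MHC region), stood at 95.8, 96.7 and 93.7 CPM at 0 h and 125, 125 and 128 CPM at 72 h in clone 1. In clone 3 the values were 104, 95.2 and 94.8 and then 133, 128 and 129 CPM. All 72 h libraries lay above all 0 h libraries of their clone, with log2 changes of 0.40 (SE 0.04, edgeR adjusted p = 6.53e-08) and 0.40 (SE 0.05, edgeR adjusted p = 8.11e-06). It had already risen at 24 h, by 0.35 and 0.24. PSMB10, the counterpart of PSMB7 (chr16:67934506-67936864), went from 20.8, 22.4 and 26.3 to 31.8, 31.3 and 28.9 CPM in clone 1, without overlap and with a log2 change of 0.40 (SE 0.09, edgeR adjusted p = 0.000524). In clone 3 its replicates were scattered, from 24.1, 27.8 and 33.9 to 38.8, 48.8 and 30.2 CPM, and overlapped. That change passed the test (log2 0.45, edgeR adjusted p = 0.0331) but not without 0 h replicate 1 or 2 or without 72 h replicate 1 or 2, where log2 values ran from 0.25 to 0.45. PSMB9, the counterpart of PSMB6, parted the clones. It rose in clone 3 from 38.4, 33.5 and 33.1 to 45.4, 47.4 and 46.8 CPM at 48 h and 45.6, 47.9 and 42.2 CPM at 72 h, a log2 change of 0.36 (SE 0.07, edgeR adjusted p = 0.00058), while in clone 1 it stood at 34.1, 32.2 and 33.1 CPM at 0 h and 33.1, 32.8 and 31.6 CPM at 72 h (log2 -0.03, edgeR adjusted p = 0.688). The difference between the clones' responses was -0.40 (SE 0.12, edgeR adjusted p = 0.0133).

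Ratios of each inducible subunit to its constitutive counterpart were formed within each library. The log2 ratio of PSMB8 to PSMB5 had means of -0.04 at 0 h and 0.15 at 72 h in shIRE1 clone 1 and of 0.09 and 0.28 in clone 3 (n = 3 each). That of PSMB9 to PSMB6 moved from -2.62 to -2.22 and from -2.40 to -1.56, and that of PSMB10 to PSMB7 from -2.87 to -2.15 and from -2.44 to -1.71. All 3 ratios were higher in each 72 h library than in any 0 h library of the same shIRE1 clone. In shIRE1 clone 1 the ratio of PSMB9 to PSMB6 rose where PSMB6 fell and PSMB9 itself was not called. In shXBP1 clone 1 this ratio rose in the same way, from -2.52 to -2.04, where PSMB6 also fell and PSMB9 was not called. The other 2 ratios overlapped between 0 and 72 h in shXBP1 clone 1. In shXBP1 clone 18 all 3 ratios overlapped, with means at 72 h of 0.14, -1.87 and -2.34, and of 0.27, -1.74 and -2.26 without replicate 3.

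**Figure D4:**
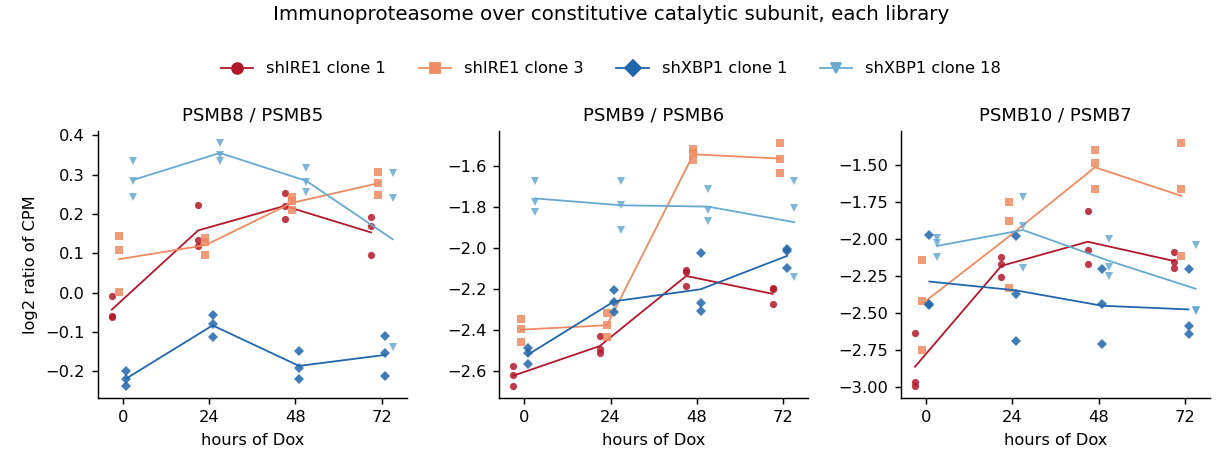
Log2 ratio of each immunoproteasome catalytic subunit to its constitutive counterpart in each library (from CPM) against hours of Dox; points are libraries, shifted sideways by clone, and lines join the means of 3 libraries per clone and time. The ratios rise in both shIRE1 clones, most for PSMB9 to PSMB6 in clone 3, and that of PSMB9 to PSMB6 also rises in shXBP1 clone 1. For PSMB8 to PSMB5 and PSMB9 to PSMB6, 1 shXBP1 clone 18 library at 72 h lies below the rest of its group.

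Of the 4 activators, which open the core without the 19S cap, 2 were lower in clone 1 at 72 h (31.1% of all genes were). PSME1, which pairs with PSME2 in the interferon-inducible 11S ring, did not pass the test in either shIRE1 clone at 72 h (log2 0.05 and 0.07, edgeR adjusted p = 0.267 and 0.25). PSME2 fell in clone 1 (log2 -0.35, edgeR adjusted p = 1.86e-05) and had a log2 change of 0.16 in clone 3 (edgeR adjusted p = 0.051), which passed the test without 0 h replicate 1 (log2 0.21, edgeR adjusted p = 0.0118). PSME3, the nuclear 11S subunit, went in clone 1 from 464, 479 and 448 to 338, 346 and 352 CPM. In clone 3 it stood at 330.0, 309.5 and 306 CPM and then at 334, 324 and 351 CPM, where the groups overlapped. Its log2 change was -0.43 in clone 1 (edgeR adjusted p = 4.39e-09) and 0.08 in clone 3 (edgeR adjusted p = 0.141), and the responses differed by -0.52 (SE 0.06, edgeR adjusted p = 4.63e-09). PSME4, the PA200 activator of nuclear histone turnover, had log2 values of 0.10 and 0.14 and passed in neither clone.

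Whether the changes went on after the first day was asked by comparing 72 h with 24 h. In shIRE1 clone 1, 14 members were lower at 72 h than at 24 h (13.9% of all genes were) and 1 was higher (15.2%), with 8 called in all without 24 h replicate 2 or without 72 h replicate 3. In clone 3, 11 were lower (17.1%) and 4 were higher (16.4%). In shXBP1 clone 1 none was called by edgeR (of all genes, 0.0542% were lower and 0.151% higher), with 2 at an unadjusted p under 0.05 and 0 by DESeq2 or limma. In shXBP1 clone 18 none was called by edgeR either (0.0949% and 0.0297%), with 3 at an unadjusted p under 0.05, 0 by DESeq2 or limma, and 1 by edgeR without 72 h replicate 1.

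The summed level of the members shows the size of the change. It went from 6772 ± 121 CPM at 0 h to 5552 ± 72.0 CPM at 72 h in shIRE1 clone 1 (SD, n = 3), a difference of -18.0%, and from 5813 ± 231 to 5324 ± 140.4 CPM in clone 3, a difference of -8.41%. In shXBP1 clone 1 it went from 6670 ± 58.0 to 5883 ± 36.8 CPM (-11.8%), and in clone 18 from 6418 ± 36.4 to 6151 ± 151 CPM (-4.15%), or to 6238 CPM without the library that stood apart. In each clone no 72 h library reached the lowest 0 h library. The sum was higher in shIRE1 clone 1 than in clone 3 before Dox and closer after it.

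That starting difference was present in single genes. At 0 h, 21 members were higher in shIRE1 clone 1 than in clone 3 (19.2% of all genes were) and 1 was lower (21.4%). PSME3 differed by 0.56 (SE 0.04, edgeR adjusted p = 4.1e-14) and PSMB2 by 0.54 (SE 0.05, edgeR adjusted p = 1.53e-12). Mean PSMB2 levels were 221 and 152 CPM at 0 h and 143 and 136 CPM at 72 h, and mean PSME3 levels 463 and 315 CPM and then 345 and 336 CPM. The responses of the clones, which share the same 0 h libraries with this comparison, differed for 9 members at 24 h (all lower in clone 1, 12.7% of all genes), for 12 at 48 h (10 lower, 13.6%, and 2 higher, 17.3%) and for 10 at 72 h (9 lower, 12%, and 1 higher, 15.5%). For PSMD12 and PSMD8 the difference of responses at 72 h was -0.07 and 0.12, with 95% intervals of -0.27 to 0.14 and -0.08 to 0.32, so that neither was called. For PSMB8 it was -0.01, with an interval of -0.20 to 0.18.

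The next question was what follows when XBP1 rather than IRE1 is silenced, and here the clones differed. In shXBP1 clone 1, 17 members were lower at 24 h (12.8% of all genes were), 18 at 48 h (15.5%) and 22 at 72 h (16.8%), and 1 was higher each time (13.9%, 16.6% and 16.8%). The count at 24 h was 18 in both directions together, but 7 when the fit held only the 6 libraries compared, and 11 without 24 h replicate 3. The median log2 change at 72 h was -0.22 for the members and -0.01 for all genes. Without overlap, 25 were lower and 2 higher (23.9% and 27.1% of all genes). Of the 27 tested core and cap subunits that are not catalytic, 18 were lower at 72 h (median -0.24). PSMB6 fell from 225, 208 and 202 to 166, 163 and 165 CPM, a log2 change of -0.38 (SE 0.06, edgeR adjusted p = 0.000695), and PSMA7 and PSMB3 fell by 0.37 and 0.38. PSMA6 had the largest fall, from 2.51, 2.59 and 2.74 to 1.24, 1.71 and 1.42 CPM (log2 -0.86, edgeR adjusted p = 0.00846), at a level of few reads and with much shared sequence. The member that was higher was PSMB8 at 24 h (log2 0.21) and PSME1 at 48 and 72 h. The call of PSMB8 was lost without 0 h replicate 3 (log2 0.18, edgeR adjusted p = 0.0567) or 24 h replicate 3 (log2 0.20, edgeR adjusted p = 0.0625). PSME1 went from 187, 193 and 182 to 219, 213 and 219.9 CPM at 72 h, a log2 change of 0.19 (SE 0.05, edgeR adjusted p = 0.00927). Its call at 48 h was lost without replicate 1 or 3 of 0 h or of 48 h (log2 0.11 to 0.14). PSMB5, PSMB8 and PSMB10 did not pass the test at 72 h, with log2 changes of 0.05, 0.11 and -0.39 (edgeR adjusted p = 0.493, 0.137 and 0.164). Plasma cell markers summed to 17617 to 20969 CPM at 0 h and to 13067 to 14105 CPM at 72 h in this clone. Of the 9, SDC1 (means of 12777 and 6805 CPM), MZB1 and the silenced XBP1 were lower, while TNFRSF17, CD38, SLAMF7 and IRF4 were higher, and their part was not tested.

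In shXBP1 clone 18 hardly any member was called, although XBP1 fell to a like extent. At 24 h none was called by edgeR (1.3% of all genes were lower and 0.291% higher), with 8 at an unadjusted p under 0.05, all lower, and 0 by DESeq2 or limma. At 48 h and at 72 h the only call was PSMA4, an alpha subunit, which was higher (2.28% and 4.41% of all genes were higher, and 3.5% and 5.55% lower). It stood at 125, 129 and 125 CPM at 0 h and 139.7, 151 and 144 CPM at 72 h, a log2 change of 0.21 (SE 0.06, edgeR adjusted p = 0.0392), without overlap. At 72 h it lost the call without 0 h replicate 1, 2 or 3 or without 72 h replicate 2, where log2 values ran from 0.18 to 0.24. At 48 h the count fell to 0 without any 0 h library or without 48 h replicate 1 or 2, and at 72 h it was 2 without 72 h replicate 1. Between 0 and 72 h, 11 members were lower and 2 higher without overlap (16.3% and 14% of all genes). The medians of the members were -0.07, -0.02 and -0.06 at the 3 times. No member was called in the same direction in both shXBP1 clones at any time (0.741%, 1.41% and 2.19% of all genes were lower in both, and 0.0679%, 0.599% and 1.44% higher). DESeq2 and limma also gave at most the 1 call of clone 18 at 48 and 72 h. The library that stood apart had 86.1 CPM of PSMB8 and 37.7 CPM of PSMB9, the lowest of its group (121, 123 and 86.1 CPM of PSMB8, 57.7, 52.5 and 37.7 CPM of PSMB9). Without it the count at 72 h stayed at 1 (7.57% of all genes were called in either direction), and PSMB8 stood at -0.04. Plasma cell markers summed to 18377 to 18732 CPM at 0 h and to 13121 to 15302 CPM at 72 h in clone 18, or 14452 to 15302 CPM without the library that stood apart. Of the 9 markers 5 were lower with all libraries, and 5 lower and 1 higher without that one. Their part was not tested.

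The responses of the shXBP1 clones were also set against each other. They differed for 7 members at 24 h, 4 higher in clone 1 (10.4% of all genes) and 3 lower (6.79%), a split of 57.1% higher that became 37.5% with RLE scaling. At 48 h 13 differed, all lower (11%), and at 72 h 12 did, 2 higher (13.6%) and 10 lower (11%), or 16 without the library that stood apart (19.8% in either direction). At 0 h, 13 members were higher in clone 1 than in clone 18 (24.5%) and 5 lower (26.8%). Among the lower were 2 of the immunoproteasome subunits, of which PSMB8 differed by -0.61 (SE 0.07, edgeR adjusted p = 1.57e-09) and PSMB9 by -0.61 (SE 0.09, edgeR adjusted p = 1.88e-07).

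Silencing of IRE1 and of XBP1 was then compared in 1 model of all 48 libraries. It tested the difference of the responses, each the mean of its clones. Its SEs, p-values and intervals measure the spread between flasks and do not cover differences between clones. The shIRE1 response was lower for 9 members at 24 h (19.7% of all genes), 23 at 48 h (28%) and 20 at 72 h (27.4%), and higher for 6 (19.1%), 6 (28.9%) and 7 (28%). The median difference of the members was -0.06, -0.21 and -0.17, against 0.04 for all genes at each time. The count rested on the clones chosen: clone 1 against clone 1 gave 8, 16 and 15 calls in place of 15, 29 and 27, and clone 3 against clone 18 gave 7 in place of 15 at 24 h.

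At 72 h the members most below the shXBP1 response were PSMD12 at -0.53 (SE 0.07, edgeR adjusted p = 1.04e-07), PSMD5 at -0.41 (SE 0.07, edgeR adjusted p = 1.14e-05), PSMD8 at -0.40 (SE 0.07, edgeR adjusted p = 6.78e-06) and PSMD14 at -0.35 (SE 0.06, edgeR adjusted p = 4.72e-06). PSMD5 fell after IRE1 silencing and had log2 changes of 0.09 and 0.07 in the shXBP1 clones. Most above it was PSMB10 at 0.80 (SE 0.18, edgeR adjusted p = 0.00018), followed by PSMB8 at 0.44 (SE 0.07, edgeR adjusted p = 9.72e-07), PSMB9 at 0.21 (SE 0.09, edgeR adjusted p = 0.0374) and PSMB5 at 0.20 (SE 0.06, edgeR adjusted p = 0.00272). The level of PSMB10 is uncertain, as 56.1% of its exonic bases overlap another gene on the same strand. Its changes after XBP1 silencing, which are part of this difference, were called in neither shXBP1 clone. Without the shXBP1 clone 18 library that stood apart, PSMB8 was at 0.35 and PSMB10 at 0.74, both still called, and PSMB9 was at 0.12 and no longer called (edgeR adjusted p = 0.121). The call of PSMB9 was lost in 14 of the 24 fits that left out 1 library, with values from 0.12 to 0.27, and it reversed to -0.14 when only the clones numbered 1 were compared. For the activator PSME3 the difference was 0.01, with a 95% interval of -0.07 to 0.09.

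**Figure D5:**
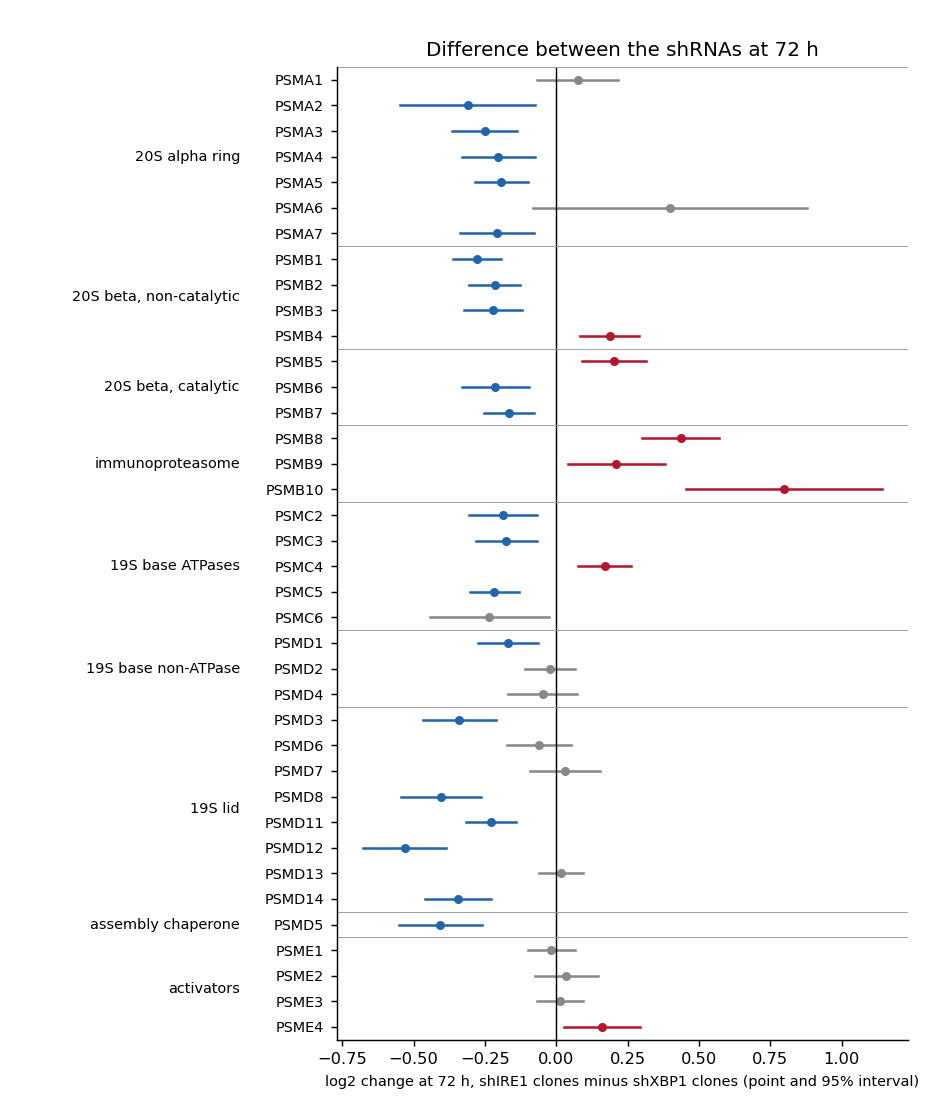
Difference of the log2 responses at 72 h, shIRE1 minus shXBP1, for the 38 tested members, ordered within role groups; points are edgeR estimates from all 48 libraries and bars their 95% intervals. Lid and base subunits lie mostly left of 0, down to -0.53 for PSMD12, and PSMB10 and PSMB8 lie farthest right, at 0.80 and 0.44.

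Genes that serve the proteasome from outside its subunits were counted in the same way at 72 h. At that time 31.1% of all genes were lower and 32.5% higher in shIRE1 clone 1, and 30.5% and 29.7% in clone 3. In shXBP1 clone 1 the shares were 16.8% and 16.8%. Of 8 assembly factors, 6 were lower in shIRE1 clone 1, 5 in clone 3 and 4 in shXBP1 clone 1. PSMG1, a chaperone of the alpha ring, had log2 changes of -0.84 and -0.79 in the shIRE1 clones (edgeR adjusted p = 1.06e-11 and 2.87e-08), larger than those of any subunit, and -0.41 and 0.11 in the shXBP1 clones. PSMD9, a chaperone of the base, stood at -0.44 and -0.47 in the shIRE1 clones. Of 15 associated proteins such as shuttles, ubiquitin ligases and deubiquitinases, 11 and 9 were lower and 1 and 2 higher in the shIRE1 clones, and 5 were lower and 1 higher in shXBP1 clone 1. UBE3C, a ligase that extends chains on bound substrates, stood at -0.71 and -0.52 there and at -0.09 and -0.03 in the shXBP1 clones, where it was not called. UCHL5, a deubiquitinase that associates with the cap, stood at -0.57 and -0.47 in the shIRE1 clones.

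Of 7 genes of the p97 system, which pulls ubiquitinated proteins out of membranes and complexes, 5 were lower and 1 higher in each shIRE1 clone, 4 were lower in shXBP1 clone 1 and 1 in clone 18. Its cofactors NSFL1C and UFD1 stood at -0.59 and -0.59 in shIRE1 clone 1 and at -0.46 and -0.33 in clone 3. Of the 5 ubiquitin genes, 2 were lower and 1 higher in shIRE1 clone 1, 2 lower and 3 higher in clone 3, 2 lower in shXBP1 clone 1 and 1 lower in clone 18, or 0 in clone 18 without the library that stood apart. RPS27A, which encodes ubiquitin fused to a ribosomal protein, rose in both shIRE1 clones (0.42 and 0.29). Of all tested genes, 31.1% were lower and 32.5% higher in shIRE1 clone 1 at this time, and 30.5% and 29.7% in clone 3. In shXBP1 clone 1 these shares were 16.8% and 16.8%, and in clone 18 they were 5.55% and 4.41%.

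Among 10 regulators of subunit transcription, 6 were higher and 1 lower in shIRE1 clone 1 at 72 h, and 4 were higher and 4 lower in clone 3. The shXBP1 clones had 5 higher and 1 lower in clone 1, and 2 lower in clone 18, or 2 lower and 1 higher there without the library that stood apart. Of all genes, 16.8% were higher and 16.8% lower in shXBP1 clone 1, and 4.41% and 5.55% in clone 18. In shIRE1 clone 1 these shares were 32.5% and 31.1%, and in clone 3 they were 29.7% and 30.5%. NFE2L1, the factor that raises subunit genes when the proteasome is blocked, went in opposite directions, from 346, 378 and 378 to 569.5, 555 and 539.6 CPM in clone 1 and from 712, 822 and 806 to 581, 554 and 542 CPM in clone 3. The log2 changes were 0.59 and -0.49 (edgeR adjusted p = 2.62e-09 and 1.18e-05), and the clones ended at like levels. NFE2L2, its relative in the oxidative stress response, stood at 0.08 and -0.23 and was called in clone 3. MAFF, a small partner of these factors, fell by 1.47 and 2.06 on the log2 scale in the shIRE1 clones and stood at 0.21 and -0.06 in the shXBP1 clones, where it was not called.

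IRF1 and NLRC5 of this list rose in both shIRE1 clones. IRF1, a transcription factor that acts on immunoproteasome promoters, went from 9.91, 10.1 and 10.6 to 27.6, 29.2 and 27.6 CPM in shIRE1 clone 1. In clone 3 its 0 h libraries lay between 14.8 and 16.6 CPM and those at 72 h stood at 54.1, 48.7 and 47.5 CPM, and the groups overlapped in neither clone. Its log2 changes at 24 h were 0.71 and 0.09, and at 72 h 1.46 and 1.68. At 72 h NLRC5, the activator of MHC class I genes, stood at 0.94 and 1.61. IRF1 also rose in shXBP1 clone 1 (log2 0.94, edgeR adjusted p = 3.74e-05), and in clone 18 it went from 31.2, 29.1 and 29.7 to 29.4, 30.1 and 14.1 CPM, the lowest value being that of the library that stood apart (log2 -0.29, or -0.0046 without that library). The difference of the shIRE1 and shXBP1 responses at 72 h was 1.24 (SE 0.14, edgeR adjusted p = 3.39e-10) for IRF1 and 1.31 (SE 0.11, edgeR adjusted p = 6.9e-13) for NLRC5, and without that library it was 1.09 and 1.20. PSMB8 had risen in both shIRE1 clones at 24 h, when NLRC5 was called in both of them and IRF1 only in clone 1. A relation of PSMB8 to IRF1 or NLRC5 was not tested.

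Of 9 genes that supply peptides to MHC class I, 6 and 5 were higher and 2 and 3 lower in the shIRE1 clones at 72 h, 2 higher and 1 lower in shXBP1 clone 1, and 4 lower in clone 18, or 5 without the library that stood apart. TAP1, which carries proteasome products into the endoplasmic reticulum, stood at 0.38 and 0.80 in the shIRE1 clones and at 0.06 and -0.29 in the shXBP1 clones, the last value being -0.04 without the clone 18 library that stood apart. ERAP2, which trims the peptides, stood at 1.12 and 1.58 in the shIRE1 clones, both called by edgeR. At this time 16.8% of all genes were higher and 16.8% lower in shXBP1 clone 1, and 4.41% and 5.55% in clone 18. In shIRE1 clone 1 these shares were 32.5% and 31.1%, and in clone 3 they were 29.7% and 30.5%.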

How the data were processed

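RNA was measured in 48 libraries of 4 AMO1 clones (3 biological replicates, grown in separate flasks, at each of 4 time points) with a stranded poly(A) kit and reads of 50 bases from 1 end. Raw read counts per gene were deposited by the authors. A second deposited table, of log2 values for 18401 genes, matched log2 CPM from edgeR when its prior count was set to 2. The submitters' processing notes name GSNAP 2013-10-10, R 4.1.3, edgeR 3.32.1 and limma 3.46.0, and the builds GRCh37 and hg19, with no role. Whether counting used strand is not given in the sources used here. The table holds gene identifiers and no coordinates, so positions are those of GRCh38 (GENCODE 44, which held 57532 of the 58302 identifiers, and RefSeq).

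Counts were tested with edgeR 4.0.16 in R 4.3.3 (quasi-likelihood F test, TMM scaling). Each clone was fitted with its 12 libraries after filterByExpr (minimum count 10, minimum total 15), and p-values were adjusted over all tested genes by Benjamini-Hochberg, with 0.05 as the threshold. Differences between clones and between shRNAs came from 1 model of all 48 libraries. A change is the log2 ratio of Dox to 0 h, and an interval covers 95%. CPM values use TMM-scaled totals. P-values measure the spread between these flasks, and intervals do not cover differences between clones. The fits were also run on simulated data in which few genes changed and all had a common spread, unlike these data. No conclusion on scaling or on counts of calls is drawn from that run. Alternatives were RLE scaling, no filter, other sets of libraries, DESeq2 1.42.0, limma 3.58.1 on the deposited log2 table, a replicate block, and leaving out each library.

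The members and the lists of related genes were chosen with earlier results of these data known. All 39 members were counted. Those named were the catalytic subunits and activators, the 4 largest rises and falls per clone and per difference between shRNAs at 72 h, the largest mean shIRE1 change of each role group, 2 genes per related list, and NFE2L1, NFE2L2, IRF1, NLRC5 and TAP1. Some genes that these rules name are not reported here. Members named beyond this, in lists of calls or of shared sequence, were named after their values were seen. Sums and ratios over members carry no test. The number of sample columns left unused was 0.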

Additional observations from a re-analysis of the deposited data

Results flagged for a closer look

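Responses that differed between shIRE1 and shXBP1 clones by the test of the difference itself (edgeR, all 48 libraries) numbered 15 of 38 members at 24 h, 29 at 48 h and 27 at 72 h, which is 39.5%, 76.3% and 71.1% of them against 38.7%, 56.9% and 55.3% of all genes. At 24 h those farthest above 0 were PSMB10 at 0.51, PSMC4 at 0.23, PSMB8 at 0.21 and PSMB5 at 0.19, and those farthest below were PSMD12 at -0.30, PSMD5 at -0.27, PSMD11 at -0.20 and PSMD8 at -0.18. At 48 h they were PSMB10 at 0.79, PSMB8 at 0.32, PSMB9 at 0.24 and PSMB4 at 0.23, against PSMD12 at -0.65, PSMD8 at -0.46, PSMD14 at -0.43 and PSMD5 at -0.41. At 72 h they were PSMB10 at 0.80, PSMB8 at 0.44, PSMB9 at 0.21 and PSMB5 at 0.20, against PSMD12 at -0.53, PSMD5 at -0.41, PSMD8 at -0.40 and PSMD14 at -0.35. The calls at 24 h of PSMD8, PSMB10 and PSMB8 were lost when single libraries were left out, that of PSMB8 without shXBP1 clone 1, 24 h, replicate 1 (log2 0.18, edgeR adjusted p = 0.0524). The call of PSMB9 at 48 h was lost without shXBP1 clone 1, 0 h, replicate 1 (log2 0.20). At 72 h it was lost in 14 of the 24 fits that left out 1 library (log2 0.12 to 0.21 in those fits).

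Between clones of the same shRNA, responses differed for 9, 12 and 10 members at 24, 48 and 72 h in the shIRE1 clones, and for 7, 13 and 12 members in the shXBP1 clones. As shares of the 38 members these are 23.7%, 31.6% and 26.3% against 28.2%, 30.8% and 27.5% of all genes, and 18.4%, 34.2% and 31.6% against 17.1%, 24.1% and 24.6%. Groups of 3 libraries were not tested for outlying values.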

How the results depend on the processing

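Replicate numbers were not treated as pairing the flasks. Of 72 pairs with the same number in a clone, 5 correlated above 0.1 (range -0.41 to 0.25, both ends in shXBP1 clone 1, replicate 1). Pairs of unlike number were not compared, so a link between flasks of the same number was not tested. A replicate block moved no count by over 1.5 times (31 members in shIRE1 clone 1 and 27 in clone 3 at 72 h). Of 218 named values that were called, 214 kept their direction and call with RLE scaling, 210 with DESeq2, 211 with limma, 206 with the block and 191 without a filter. Differences between shRNAs rested most on the clones used. In the pair of clones numbered 1, counts were 8, 16 and 15 at 24, 48 and 72 h in place of 15, 29 and 27, and values reversed for PSMB4 at 24 h (-0.055), PSME3 at 48 h (-0.17) and PSMB9 at 72 h (-0.14). In the pair of clones 3 and 18 the count at 24 h was 7 and PSME3 reversed at 24 h (0.014). Without a filter that count was also 7, and the differences between shXBP1 clones numbered 4, 7 and 5 in place of 7, 13 and 12. At 24 h that difference rose to 11 with DESeq2, and to 11 when the library that stood apart was kept out of the spread. With only the 6 libraries compared, shXBP1 clone 1 had 7 calls at 24 h, and clone 18 had 1, 5 and 0 at 24, 48 and 72 h. With all 48 libraries clone 18 had 1, 2 and 3, and 1 at 72 h against 24 h, where no filter gave 2. Keeping the library that stood apart out of the spread gave clone 18 counts of 1 at 24 h and 2 at 48 h. Leaving out single libraries gave 8 to 19 calls for shIRE1 clone 1 at 72 h against 24 h, 8 to 21 for clone 3 at 24 h, 11 to 17 for shXBP1 clone 1 at 24 h, and 0 to 1, 0 to 2 and 0 to 1 for clone 18 at 48 h, 72 h and 72 h against 24 h. The causes of these shifts were not tested. Depth limits little here except for PSMC1 and PSMA6.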

Other observations

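The shXBP1 clones differed before Dox in some of the genes that act with the immunoproteasome. Of all genes, 51.3% differed between these clones at 0 h, and 40.6% between the shIRE1 clones. In untreated cells the difference of shXBP1 clone 1 from clone 18 was -2.15 (SE 0.14, edgeR adjusted p = 1.29e-15) for IRF1, -0.96 (SE 0.11, edgeR adjusted p = 1.88e-09) for the peptide transporter TAP1 and -1.08 (SE 0.07, edgeR adjusted p = 2.73e-15) for B2M, the light chain of MHC class I. PSMB8 and PSMB9 were also lower in clone 1. IRF1 stood at 6.73, 6.61 and 6.85 CPM in clone 1 and at 31.2, 29.1 and 29.7 CPM in clone 18, so that the groups did not overlap. In untreated shIRE1 clones 1 and 3, mean levels were 10.2 and 15.5 CPM for IRF1, 113 and 116 for TAP1, and 1994.7 and 2631.5 for B2M. NFE2L1 differed before Dox in both pairs of clones, by -1.09 (SE 0.06, edgeR adjusted p = 6.15e-18) between shIRE1 clones 1 and 3 and by -0.76 (SE 0.06, edgeR adjusted p = 1.58e-13) between shXBP1 clones 1 and 18. At 72 h it stood at 584, 560.5 and 571 CPM in shXBP1 clone 1 and at 660.0, 595 and 581 CPM in clone 18. These comparisons share the 0 h libraries with the changes after Dox, and no relation between the starting level and the response was tested.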
